A study of Mus musculus with 101 samples.

Results

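The genes described here code for the piRNA pathway and for the silencing of transposons. They were chosen by name as known parts of that machinery, and 32 of the 33 listed had a row among the 15423 genes measured. Spocd1 had no row and was not analysed here.

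The values come from primordial germ cells of OG2 mouse embryos, a strain in which a Pou5f1 promoter drives EGFP, so that EGFP-positive cells can be sorted from the fetal gonad at E13.5. Pregnant F0 dams were given benzo[a]pyrene (BaP) in sesame oil at a low (0.033), middle (0.2) or high (2) dose in mg/kg-day, or the oil alone (vehicle, 0 mg/kg-day), from E6.5 to E11.5 for F1 and from E6.5 to E15.5 for the lines that led to F2 and F3. The directly exposed F1 embryos, and F2 and F3 embryos descended from exposed fetuses, gave 1 library of poly(A) RNA each, 101 in all from 53 males and 48 females of 56 dams. These dams are the embryos' own mothers, which for F2 and F3 were descendants of the F0 dams. Embryos of different dams may share an F0 dam, which the labels do not give and no fit took in. There were 17 vehicle embryos of each sex (5 in F1, 6 in F2 and 6 in F3), and in females 9, 10 and 12 embryos at the low, middle and high dose beside 9, 13 and 14 in males. Up to 3 littermates shared a dam, and 15 vehicle dams gave both a male and a female. Sorting enriches germ cells and does not remove every other cell of the gonad. In RNA of sorted cells, fewer cells of a type and less RNA per cell cannot be told apart.

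Each value is a read count per gene divided by a library factor, here called a normalized count. The libraries that could be turned back into whole reads held 5004382 to 87240533 reads, with a median of 7789673, and 1 read added between 0.00959 and 0.238 to a normalized count. The 11 deepest libraries, all from F1, had at least 21247642 reads. The labelled cell type was present: the 8 germ cell markers summed to a median normalized count of 3685 in vehicle females and 3954 in vehicle males, led by Dppa3. Among markers of fetal germ cell sex, Stra8, a gene that germ cells need to enter meiosis, ran from 62.9 to 743 in vehicle females and from 0 to 14.1 in vehicle males. Lefty2, a Nodal pathway gene of the male germ line at this stage, ran from 53.7 to 122 in vehicle males and from 0 to 0.67 in vehicle females. The library D1390.5, labelled an F3 male of the middle dose, stood apart with a Lefty2 value of 33.8, between the vehicle sexes. Its Stra8 value of 14.7 was just above the highest of vehicle males, 14.1, and its Nanos2 read 0, as in 5 other males.

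piRNAs are small RNAs that guide PIWI proteins to transposon transcripts in germ cells. Their precursors are cut and trimmed at mitochondria and in nuage, a perinuclear granule held together by Tudor domain proteins that bind methylated arginines of the PIWI proteins. In the mouse the pathway is best known from the fetal testis, where the male germ line regains DNA methylation at transposons after it was erased in primordial germ cells, and histone methylation on H3K9 keeps many elements silent meanwhile.

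Most of the pathway was expressed in both sexes. Per kilobase of exon, the mean normalized count in vehicle embryos had a median over the 32 genes of 6.09 in females and 5.32 in males, beside 1.52 and 1.53 over the 13904 genes with a length. At least 1 per kilobase was reached by 26 genes in females and 25 in males, and by 56.9% and 57.0% of all genes. At least 10 per kilobase were reached by 15 of the genes in females and 14 in males, while 22.7% and 22.9% of all genes did so. The chaperone Hsp90aa1 stood highest, at 945 per kilobase in females and 857 in males. The cochaperone Fkbp6 came next, at 378 and 233, and the Tudor protein gene Stk31 followed at 207 and 124. Among the genes on which the results below turn, GRCm38 places Fkbp6 at chr5:135291704-135350044, Mael at chr1:166201201-166238747, Tdrd5 at chr1:156255296-156303664 and Morc1 at chr16:48431237-48630900.

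The genes of the PIWI proteins differed widely on the same scale per kilobase. Piwil2, whose product MILI loads the first piRNAs of the fetal testis, reached 5.90 in females and 4.46 in males, near the median of the group and above that of all genes. Piwil4, whose product MIWI2 carries piRNAs to the nucleus, reached 0.387 and 0.342. Piwil1, whose product MIWI acts in later spermatogenesis, reached 0.0618 and 0.123, and Tdrd6, a Tudor gene of spermatids, 0.0037 in females and 0.0116 in males. Tdrd6 read 0 in 15 of the 17 vehicle females and 13 of the 17 vehicle males, and at this depth a few reads decide its value.

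**Figure D1:**
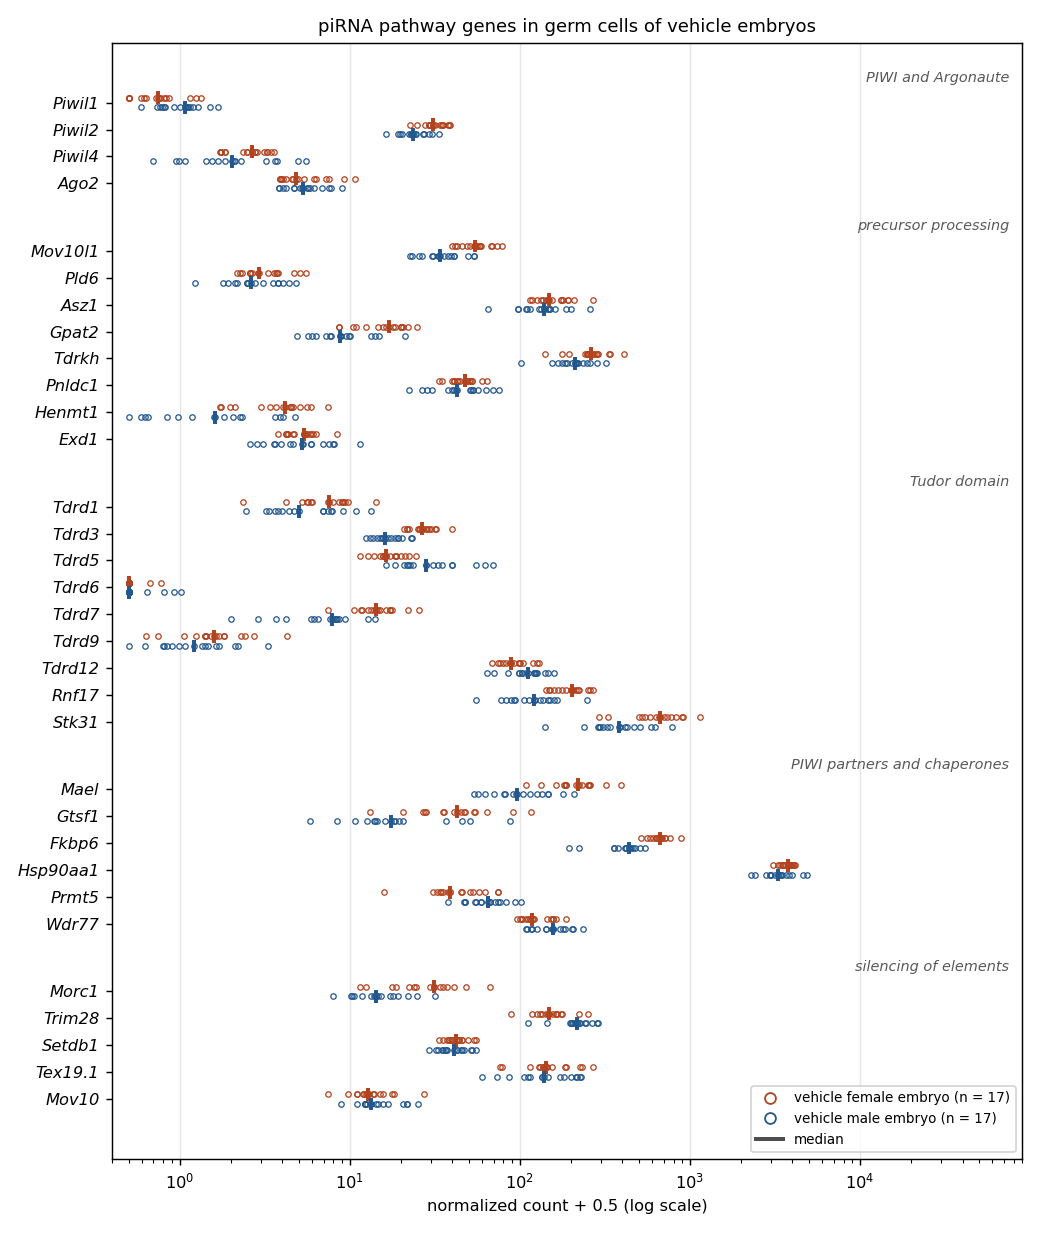
Normalized counts plus 0.5 on a log scale for the 32 genes, with 1 open circle per vehicle embryo (17 females and 17 males) and a bar at each median. Hsp90aa1 lies highest with medians of 3754 in females and 3298 in males, and Piwil1 and Tdrd6 lie lowest.

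The comparison of vehicle males with vehicle females asks how the pathway differed between the sexes when female germ cells enter meiosis and male germ cells do not. Most of the differences were lower values in males, strongest for the piRNA methyltransferase gene Henmt1, the Tudor gene Tdrd7 and the PIWI partner genes Gtsf1 and Mael, while Tdrd5, Prmt5, Trim28 and Wdr77 were higher in males. By limma, with adjusted p under 0.05 over 13288 genes, 18 of the 30 genes tested passed, beside 56.5% of all genes tested. The 14 that were lower in males compare with 28.6% of all genes, and the 4 that were higher with 27.9%. The share that passed was thus near that of all genes, whereas the median log2 fold change, males minus females, was -0.33 beside 0.0019 over all genes tested. Piwil1 and Tdrd6, with means under the filter of 0.5, were not tested.

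Of the 3 PIWI and Argonaute genes tested, 1 was lower in males, beside 28.6% of all genes. Piwil2 had a mean normalized count of 23.6 ± 4.32 (SD, n = 17) in males and 31.2 ± 4.61 (n = 17) in females, and 16 of the males lay below the female median (log2 fold change -0.40, SE 0.0916, limma adjusted p = 8.61e-05). Piwil4 ran from 0.194 to 5.03 with a median of 1.54 in males, and from 1.23 to 3.10 with a median of 2.16 in females. Its male values spread past the females on both sides, with 7 males below every female and 4 above every female, and its log2 fold change of -0.34 did not pass (limma adjusted p = 0.186). Ago2, the slicing Argonaute of the microRNA pathway, had nearly equal means of 5.11 in males and 5.12 in females. Without the filter on low values, Piwil1 passed as well, with medians of 0.575 in males and 0.245 in females.

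Of the 8 genes of precursor processing, 4 were lower in males and none was higher, beside 28.6% and 27.9% of all genes. Henmt1, which methylates the ends of piRNAs, ran from 0 to 4.27 with a median of 1.12 in males, and from 1.23 to 6.97 with a median of 3.66 in females. The groups overlapped, but 9 males lay below every female, and the difference was 2.38-fold (log2 fold change -1.25, SE 0.323, limma adjusted p = 0.000574). With a filter at a mean of 5, Henmt1 was too low to be tested. Mov10l1, the helicase that hands precursors to processing, had a mean of 35.5 ± 9.70 (SD, n = 17) in males and 55.4 ± 11.1 (n = 17) in females, and 12 males lay below every female (log2 fold change -0.66, limma adjusted p = 3.87e-06). Gpat2, which codes for a protein of the mitochondrial outer membrane, had means of 9.19 ± 4.11 and 15.9 ± 4.78 in males and females (log2 fold change -0.79, limma adjusted p = 2.82e-05). Tdrkh, a Tudor protein that holds PIWI proteins at mitochondria, had means of 211 ± 50.6 and 263 ± 62.3 (log2 fold change -0.32, limma adjusted p = 0.00698). In the annotation, Tdrkh shares 36.7% of its exon bases with Oaz3 on the other strand, and Henmt1 shares 14.7% with Gm9857, so that reads of those genes could be counted here if the counting ignored strand, which the labels do not state. The mitochondrial scaffold gene Asz1, the nuclease gene Pld6, the trimming enzyme gene Pnldc1 and Exd1, whose protein works with TDRD12, had log2 fold changes from -0.24 to -0.04 and did not pass. With dams as a block, Asz1 passed as well.

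Of the 8 Tudor domain genes tested, 4 were lower and 1 was higher in males, beside 28.6% and 27.9% of all genes. Tdrd7, a nuage component, ran from 1.49 to 13.5 with a median of 7.37 in males, and from 6.98 to 25.1 with a median of 13.8 in females. All 17 males lay below the female median and 7 below every female, a 2.196-fold difference (log2 fold change -1.14, SE 0.199, limma adjusted p = 6.35e-07). Tdrd5, which works in piRNA production and nuage assembly, ran the other way, from 15.8 to 68.9 with a median of 27.7 in males and from 10.9 to 23.8 with a median of 15.8 in females. All 17 males lay above the female median and 10 above every female (log2 fold change 0.85, SE 0.159, limma adjusted p = 3.03e-06). Stk31 had means of 399.9 ± 157 in males and 669 ± 209.9 in females (log2 fold change -0.77, limma adjusted p = 0.000259). Rnf17, a Tudor protein with a RING finger, had means of 122 ± 44.9 and 198 ± 38.7 (log2 fold change -0.75, limma adjusted p = 9.44e-08). Tdrd3, a Tudor protein that reads methylated arginines on histones, had means of 16.5 ± 3.11 and 26.7 ± 4.67, and 15 males lay below every female (log2 fold change -0.68, limma adjusted p = 6.47e-08). The nuage organizer gene Tdrd1 and the helicase genes Tdrd9 and Tdrd12 did not pass, with log2 fold changes of -0.33, -0.40 and 0.24. Tdrd12 passed with upper quartile scaling and with dams as a block.

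All 6 PIWI partner and chaperone genes passed, 4 of them lower in males, beside 56.5% of all genes that passed and 28.6% that were lower. Whether the roles differ in their share was not tested. Mael, the gene of the nuage protein Maelstrom, ran from 52.8 to 207 with a median of 95.3 in males, and from 108 to 392 with a median of 219 in females. The groups overlapped, yet 10 males lay below every female and all 17 below the female median (log2 fold change -1.07, SE 0.190, limma adjusted p = 8.66e-07). Gtsf1, a zinc finger partner that PIWI proteins need to cut their targets, ran from 5.33 to 87.4 with a median of 16.99 in males, and from 12.6 to 116 with a median of 41.9 in females. Its groups overlapped widely, with 3 males above the female median (log2 fold change -1.11, SE 0.320, limma adjusted p = 0.00202). Fkbp6 had the smallest p of the group and was singled out after its values were seen: it ran from 194 to 546 with a median of 435 in males, and from 516 to 885 with a median of 669 in females. Only 1 male reached into the female range, and in each generation taken alone the sexes did not overlap (log2 fold change -0.73, SE 0.0904, limma adjusted p = 2.17e-11).

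Prmt5, the enzyme that methylates PIWI arginines, ran from 37.0 to 100.2 with a median of 64.5 in males, and from 15.3 to 74.1 with a median of 38.4 in females. The ranges overlapped, with 5 males above every female (log2 fold change 0.58, SE 0.184, limma adjusted p = 0.00462). Wdr77, the partner subunit of PRMT5, ran from 109 to 233 with a median of 155 in males, and from 95.0 to 186 with a median of 117 in females. The groups overlapped, and 14 of the 17 males lay above the female median (log2 fold change 0.29, SE 0.124, limma adjusted p = 0.0396). Without the 11 deepest libraries Wdr77 no longer passed, and 28.7% of its exon bases are shared with the same-strand transcript Gm42890. Hsp90aa1 had means of 3368 ± 679 in males and 3716 ± 302 in females (log2 fold change -0.16, limma adjusted p = 0.0380). It did not pass with upper quartile scaling, with the edgeR likelihood ratio test or with the vehicle groups fitted alone.

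Of the 5 genes that silence elements at chromatin or in the cytoplasm and were tested, 1 was higher and 1 lower in males. Of all genes, 27.9% were higher and 28.6% lower. Trim28, the corepressor that KRAB zinc finger proteins bring to transposons, ran from 111 to 289 with a median of 215 in males, and from 88.2 to 252 with a median of 147 in females. Its groups overlapped, and 15 of the 17 males lay above the female median (log2 fold change 0.48, SE 0.107, limma adjusted p = 7.25e-05). Morc1, an ATPase needed for transposon methylation in the male germ line, had means of 15.3 ± 5.95 in males and 29.8 ± 13.6 in females, and 16 males lay below the female median (log2 fold change -0.89, limma adjusted p = 0.000669). Setdb1, the H3K9 methyltransferase that TRIM28 recruits, had means of 40.5 ± 7.59 in males and 42.2 ± 6.07 in females and did not pass. Tex19.1, a placental and germ cell gene that restrains retrotransposons, and Mov10, an RNA helicase that limits retroelements, did not pass either, with log2 fold changes of -0.07 and 0.14.

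**Figure D2:**
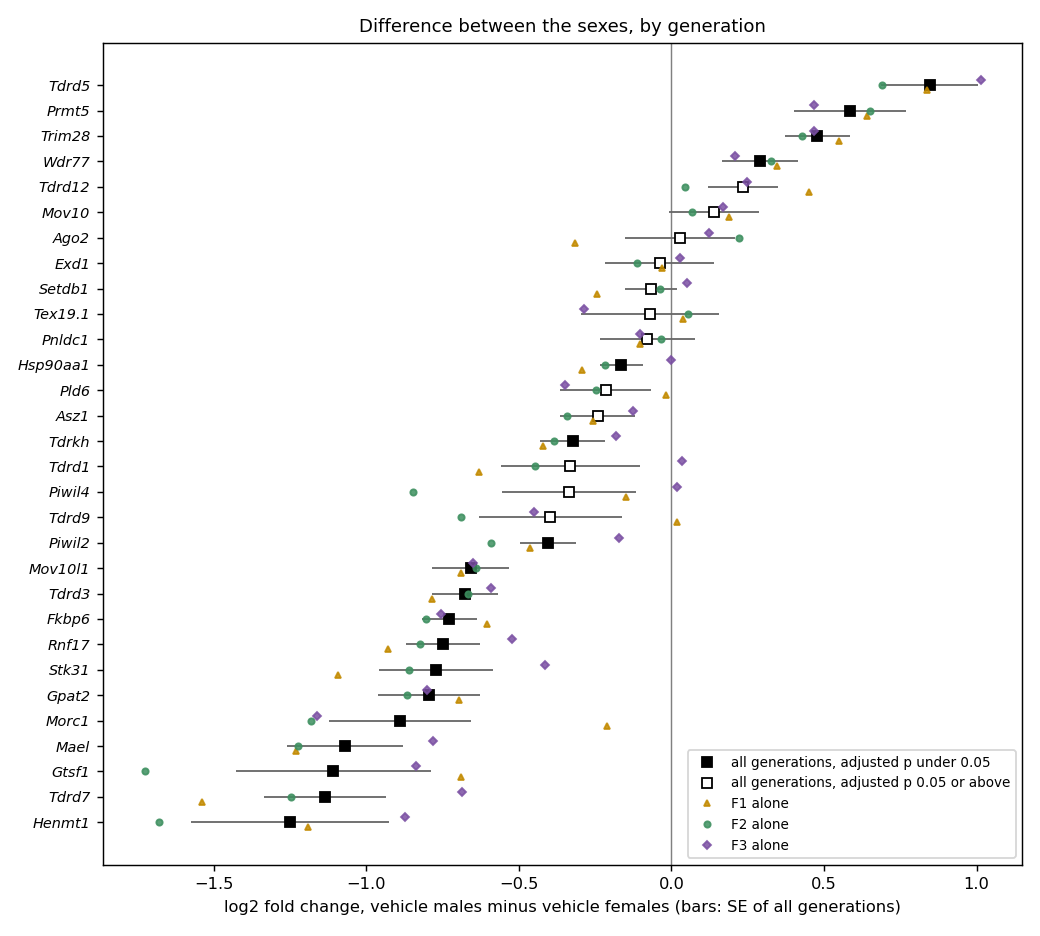
Log2 fold change of vehicle males minus vehicle females for the 30 genes tested, with squares and SE bars for all generations (filled where limma adjusted p was under 0.05) and small symbols for F1, F2 and F3 alone. The values run from -1.25 for Henmt1 to 0.85 for Tdrd5.

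Taken by generation, with 5 vehicle embryos of each sex in F1 and 6 in F2 and F3, limma gave 7 of 31 genes in F1 beside 23.8% of all genes, 15 of 30 in F2 beside 41.1%, and 8 of 30 in F3 beside 32.2%. Only Fkbp6, Rnf17 and Tdrd3, lower in males, and Tdrd5, higher in males, passed in all 3 generations. The share of all genes that did so was not counted. All 18 genes that passed over all generations had the same sign in each generation. The same vehicle embryos gave both sets of values, so this agreement is not independent of the choice of the 18. Fkbp6 had log2 fold changes of -0.60, -0.80 and -0.75 in F1, F2 and F3, and Tdrd5 had 0.84, 0.69 and 1.01. Piwil2, Henmt1, Gtsf1 and Prmt5 passed in F2 and not in F1 or F3, and whether the generations differ was not tested. Gtsf1 had log2 fold changes of -0.69, -1.73 and -0.84 in F1, F2 and F3, and Henmt1 had -1.19, -1.68 and -0.87. The F1 call of Tdrd5 was lost without any 1 of 5 vehicle embryos: C4232.2, C4232.9, C4321.1, D1961.1 or D2580.1. Without C4232.9 the F1 count was 4, since Fkbp6 and Stk31 no longer passed either, and without the F1 male C3774.3 it was 10.

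Markers of gonadal somatic cells differed between the sexes as well. The 8 Sertoli cell markers summed to 30.3 to 539 in vehicle males with a median of 226, and to 12.9 to 37.1 in vehicle females with a median of 20.7, led by Aard in both. In females most of that sum was Aard, while Sox9 read 0 in 12 and Amh in 15 of the 17 embryos. The medians of the other sums were small beside those of germ cells: 4.78 in females and 4.59 in males for 6 of 7 pregranulosa markers, 3.25 and 5.72 for 6 fetal Leydig markers, and 1.44 and 2.58 for 7 stromal markers. Endothelial markers, 5 of 6 measured, gave 33.6 and 25.9, nearly all of it Pecam1, which germ cells express too, while Kdr and Emcn had medians of 0 in both sexes. The 7 macrophage markers gave 15.4 and 10.6. Erythroid markers, 6 of 7 measured and led by Hba-a1, gave medians of 1.40 and 1.496 but reached 239.9 in 1 female and 5416, 1545, 1055 and 81.1 in 4 males. Hba-a1 and Hba-a2, paired globin genes, had the same lowest, median and highest values in each vehicle sex, up to 2378 each, so the sum may hold 1 signal for both. The male with the highest erythroid sum, D1388.1 of F3, had the highest sums of vehicle males for Leydig markers (37.8) and stromal markers (78.2, next 8.05), and its littermate D1388.3 the highest stromal sum of vehicle females (28.2, next 2.52). The part of these cells in the differences above was not tested. Meiosis itself parted the sexes, with the 9 meiotic genes at a summed median of 2203.9 in females and 504 in males and all 9 lower in males by limma, and 6 male fate genes, of 7 listed, at 3.33 and 209.6, all 6 of them higher in males.

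Genes listed around the pathway passed in both directions, beside 27.9% of all genes higher and 28.6% lower in males. Of 23 piRNA and nuage cofactors tested from a list of 26, limma gave 6 higher and 8 lower in vehicle males, with a median log2 fold change of 0.15, and these 14 are a share near the 56.5% of all genes. Ago4, an Argonaute of small RNA silencing, had medians of 0.623 in males and 3.21 in females (log2 fold change -1.69, limma adjusted p = 4.90e-15). Tex15, which works with MIWI2 in transposon methylation, had medians of 25.9 and 76.1 (log2 fold change -1.59, limma adjusted p = 2.38e-11). Zcwpw1, a histone reader of meiotic cells, was the other of the lower genes with the smallest p, at 119 and 203 (log2 fold change -0.81). Ago1 was higher in males at medians of 10.2 and 4.96 (log2 fold change 1.06), as was the arginine methyltransferase gene Prmt1 at 29.2 and 12.5 (log2 fold change 1.06). Nanos2, an RNA-binding protein of male fetal germ cells, had medians of 0.614 and 0 (log2 fold change 1.78, limma adjusted p = 7.65e-06).

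Of 25 genes of H3K9 methylation and heterochromatin, 5 were higher and 8 lower in males by limma, again near the 56.5% of all genes, with a median log2 fold change of 0.07. Zfp932, a KRAB zinc finger gene, had the smallest p among those higher in males, with medians of 65.6 in males and 40.3 in females (log2 fold change 0.80). The heterochromatin protein genes Cbx1 and Cbx5 followed, with log2 fold changes of 0.51 and 0.27. Setdb2, Trim24 and the H3K9 methyltransferase gene Suv39h1 were lower in males, with log2 fold changes of -0.98, -0.60 and -0.90. Of 4 DNA methylation genes tested from a list of 6, Dnmt3a and Dnmt3b, both de novo methyltransferases, were higher in males with log2 fold changes of 0.41 and 0.48. Of 11 tested genes that restrict retroelements in the cytoplasm or clear their nucleic acids, from a list of 12, Samhd1, Rnaseh2a and Trim25 were higher in males (log2 fold changes 0.90, 0.60 and 0.44) and Larp7 and Rnaseh2b were lower (-0.38 and -0.32).

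Stra8, a gene of meiotic entry, and Nanos2, a gene of male fetal germ cells, varied among embryos of 1 sex. The genes were set against Stra8 over all 48 females and against Nanos2 over all 53 males. In females, genes such as Mael, Tdrd1, Tdrd7, Henmt1 and Stk31 were high where Stra8 was high, and Morc1, Mov10, Tdrd12 and Trim28 were high where Stra8 was low. In males, Tdrd5, Mael, Tdrd1, Exd1 and Tdrd7 were high where Nanos2 was high. Over the 64 relations, 22 in females (15 positive, 7 negative) and 15 in males (13 positive, 2 negative) had adjusted p under 0.05 for both Pearson r and Spearman rho by two-sided permutation tests with 100000 resamples, for which the smallest p is 1e-05. Among all genes, 45.5% met the same limits on both p in females (23.5% positive, 22% negative) and 30.8% in males (14.6% positive, 16.1% negative). The median r of the 32 genes was 0.385 in females beside -0.000755 over all genes, and 0.186 in males beside -0.0135.

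In females, Mael ran from 78.2 to 392 with a median of 200.6 over the 48 embryos, and Stra8 ran from 9.12 to 882 with a median of 397. Mael gave the highest r with Stra8, 0.873 (rho 0.892, permutation p = 1e-05 and adjusted p = 4.00e-05 for r), and r was 0.846 without the 2 embryos farthest from the median of Stra8, which were D3501.3 at 9.12 and E0103.2 at 11.4. Within F1, F2 and F3 its r was 0.777, 0.8497 and 0.949. Females with low Stra8 thus had low Mael in each generation. Tdrd1 gave 0.842 (rho 0.805), Tdrd7 0.839 (rho 0.751), Henmt1 0.824 (rho 0.808) and Stk31 0.813 (rho 0.860), each with permutation p = 1e-05 and adjusted p = 4.00e-05 for r. Morc1 gave the lowest r, -0.741 (rho -0.810, permutation p = 1e-05 and adjusted p = 4.00e-05 for r), which was -0.720 without the 2 farthest embryos and -0.769, -0.660 and -0.793 within the generations. Mov10 gave -0.678, Tdrd12 -0.665 and Trim28 -0.604, so that females with lower Stra8 tended to hold higher levels of these genes. For Trim28 the r was -0.715 without the 2 farthest embryos, which were those lowest in Stra8.

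In males, Nanos2 was low, from 0 to 10.95 with a median of 1.84 over the 53 embryos, and 6 embryos read 0. Tdrd5 ran from 15.8 to 69.3 with a median of 30.3 in the same males and gave the highest r with Nanos2, 0.818 (rho 0.814, permutation p = 1e-05 and adjusted p = 4.00e-05 for r). Its r was 0.793 without the 2 farthest embryos and 0.707, 0.84965 and 0.936 within F1, F2 and F3. In females, Tdrd5 ran only from 10.9 to 23.8 and its r with Stra8 was -0.0448 (rho -0.103, permutation test, adjusted p = 0.813 for r). Mael gave an r of 0.782 with Nanos2 (rho 0.771), Tdrd1 0.774 (rho 0.752), Exd1 0.707 (rho 0.732), Tdrd7 0.7002 (rho 0.779) and Henmt1 0.673 (rho 0.641), each with permutation p = 1e-05 and adjusted p = 4.00e-05 for r. Morc1 was again negative, at -0.520 (rho -0.476). A high Nanos2 is not read here as a stronger male program. The males highest in Nanos2, C4321.1 at 10.95 and D1064.1 at 10.8, had Lefty2 of 65.2 and 49.6 and Stra8 of 7.38 and 4.36. D1190.1, with Nanos2 at 0, had Lefty2 of 143 and Stra8 of 0.318. Not all males followed this: C4232.2, with Nanos2 at 6.76, had Lefty2 of 84.0, and D1390.5 was low in both. How Nanos2 and Lefty2 relate over the males was not tested.

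Between the sexes, 9 genes were positive with both markers (Piwil4, Gpat2, Henmt1, Tdrd1, Tdrd7, Tdrd9, Stk31, Mael and Gtsf1) beside 6.49% of all genes, and Ago2 and Morc1 were negative with both beside 8.03%. None of the 32 passed with opposite signs, as 2.82% of all genes did. All 37 relations that passed kept their sign without the 2 farthest embryos. All 15 in males had the same sign in each generation, as did 21 of the 22 in females, the exception being Piwil2, whose r within F1 was -0.0349. The relations were chosen over these same embryos, so the counts of kept signs are largely set by that choice. After group means of generation, sex and dose were removed, 23 relations passed in females and 13 in males. Without the 11 deepest libraries the counts were 22 and 15, and without D1390.5 there were 14 in males. The call of Ago2 in males was lost without D1390.5, with group means removed and within each generation, and that of Gpat2 in males with group means removed and within each generation, so neither passed with both markers there. In males, Morc1, Gtsf1, Piwil4 and Stk31 also lost their calls within F2 and F3, Tdrd9 within F1 and F2, and Henmt1 within F2. In females, Gtsf1 lost its call within F1 and F3, Tdrd9 within F1 and F2, and Piwil4 within F2. Tdrd1, Tdrd7 and Mael passed with both markers in each generation.

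**Figure D3:**
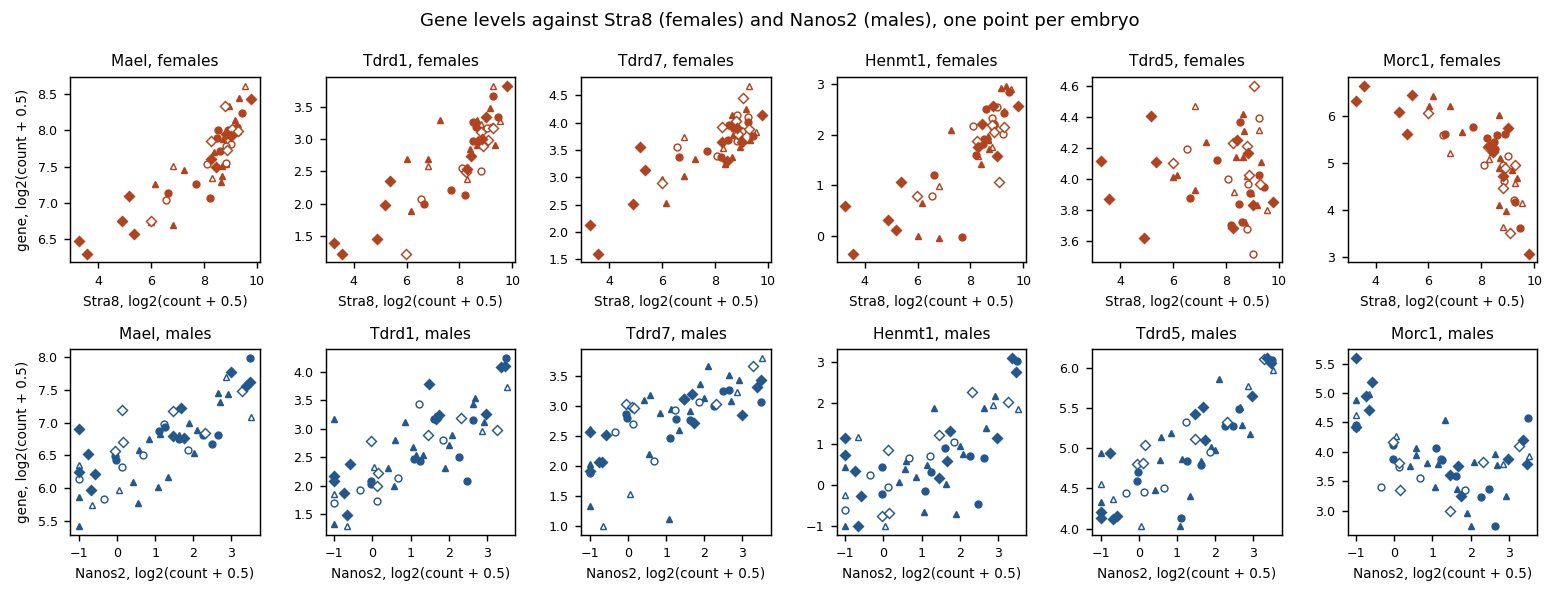
Levels as log2 of the normalized count plus 0.5, with 1 point per embryo, against Stra8 in the 48 females and Nanos2 in the 53 males; open symbols are vehicle and filled symbols exposed embryos, with triangles for F1, circles for F2 and diamonds for F3. Mael rises with the marker in both sexes (r 0.873 and 0.782), Tdrd5 in males (r 0.818) and not detectably in females, and Morc1 falls in both (r -0.741 and -0.520).

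The exposure comparisons ask whether germ cells of embryos from treated lines differ from those of vehicle lines in these genes. By limma, 0 of 30 genes had adjusted p under 0.05 for the low, middle or high dose, or for the mean of the doses, in males or females of all generations, and none did in the 18 comparisons of a dose within a generation and sex. The doses share their vehicle embryos, and the comparisons of all generations share embryos with those of single generations. Over all genes tested, 1.36% passed for the high dose in females of all generations, 0.00733% for the high dose in F1 females and 0.145% for the middle dose in F2 males, and 0% in every other exposure comparison. At an unadjusted p under 0.05, limma gave 15 of 240 tests of these genes over all generations, or 6.25% beside 6.03% for all genes, and 27 of 546 in single generations, or 4.95% beside 5.1%. By edgeR the quasi-likelihood test gave none, and the likelihood ratio test gave none over all generations and 2 in single generations, Mael and Pnldc1 in F2 males of the middle dose, where 0.497% of all genes passed that test. The difference between males and females in the mean effect of the doses gave 0 of 30 genes by limma, with 0 at an unadjusted p under 0.05 beside 1.96% of all genes, and 0 by edgeR. With dams as a block, which takes in that males and females share dams, 4 of the 30 genes had an unadjusted p under 0.05 beside 4.06% of all genes, and none passed after adjustment.

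The comparison with the most differences over all genes was the high dose in females, with 12 exposed and 17 vehicle embryos. There, 8 of the 30 genes had an unadjusted p under 0.05 beside 23.3% of all genes, and the median log2 fold change was -0.15 beside -0.02 over all genes. The genes named from here on were picked after their values were seen. Morc1 ran from 11.9 to 99.5 with a median of 47.6 in exposed females, and from 10.9 to 66.3 with a median of 30.6 in vehicle females. The groups overlapped, with 11 of the 12 exposed females above the vehicle median and 4 above every vehicle female (log2 fold change 0.82, SE 0.256, limma adjusted p = 0.0594). Its medians at the low and middle dose were 47.6 and 36.2. In males the Morc1 medians were 13.8, 13.3, 15.1 and 13.4 from vehicle to the high dose.

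Tdrd7 ran from 2.54 to 13.1 with a median of 9.48 in high-dose females, and from 6.98 to 25.1 with a median of 13.8 in vehicle females. All 12 exposed females lay below the vehicle median and 2 below every vehicle female (log2 fold change -0.68, SE 0.219, limma adjusted p = 0.0644). Tex19.1 ran from 31.1 to 188 with a median of 89.2 and, in vehicle females, from 75.8 to 268 with a median of 141. The ranges overlapped, and 10 of the 12 exposed females lay below the vehicle median (log2 fold change -0.71, SE 0.249, limma adjusted p = 0.0766). Pnldc1 ran from 11.4 to 49.7 with a median of 33.9 and, in vehicle females, from 32.95 to 63.8 with a median of 47.1. Of the 12 exposed females 11 lay below the vehicle median and 5 below every vehicle female (log2 fold change -0.49, SE 0.171, limma adjusted p = 0.0771). Tdrd3, Piwil4, Asz1 and Mov10l1 were the other genes with an unadjusted p under 0.05, with log2 fold changes of -0.31, -0.52, 0.29 and -0.27.

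These values lay near the threshold, and settings moved them across it. With the 2 groups fitted alone, Morc1, Piwil4, Pnldc1, Tdrd7 and Tex19.1 passed by limma with adjusted p from 0.0387 to 0.0425, as did 7.4% of all genes. Morc1 passed by limma with dams as a block (adjusted p = 0.0450), as did 3.35% of all genes, and with a filter at a mean of 5 (adjusted p = 0.0454), as did 4.88%. Most other settings lowered the calls over all genes, and none of the 30 genes passed in them. By edgeR, 0.203% of all genes passed the quasi-likelihood test and 1.06% the likelihood ratio test after adjustment. At an unadjusted p under 0.05, each edgeR test gave 5 of the 30 genes, beside 2706 and 2744 of all 13291 genes. By limma, where 181 genes passed in the main fit, 28 did with upper quartile scaling, 21 with a pseudocount of 0.1, 19 without the filter, 1 with generation as a term and 0 without the 11 deepest libraries, while a pseudocount of 1 gave 276 and leaving out D1390.5 gave 169. Stra8 had a median of 302 in high-dose females and 450.5 in vehicle females, and its range in exposed females began at 11.4. Of the 9 meiotic genes none passed by limma in this comparison, with a median log2 fold change of -0.41 and a smallest adjusted p of 0.0867. The 8 Sertoli markers summed to a median of 22.8 with a highest value of 115, nearly all Aard, and 4 of the 12 embryos (38.8, 67.1, 71.5 and 115) lay above the highest vehicle female at 37.1. The erythroid markers gave 1788, 1277 and 375 in 3 embryos, above the vehicle highest of 239.9. The part of Stra8-marked meiotic entry or of other cells in the differences was not tested. Beside the 1.36% of all genes that passed, 1 of the 25 genes of H3K9 methylation and heterochromatin (Cbx1) and 1 of the 8 germ cell markers (Dppa3) rose in high-dose females, with log2 fold changes of 0.37 and 0.51 and limma adjusted p = 0.0481 for each. Neither passed without the 11 deepest libraries, where no gene did. None of the 23 cofactors, 4 DNA methylation genes and 11 restriction genes tested passed, and the 8 germ cell markers had a median log2 fold change of 0.09.

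**Figure D4:**
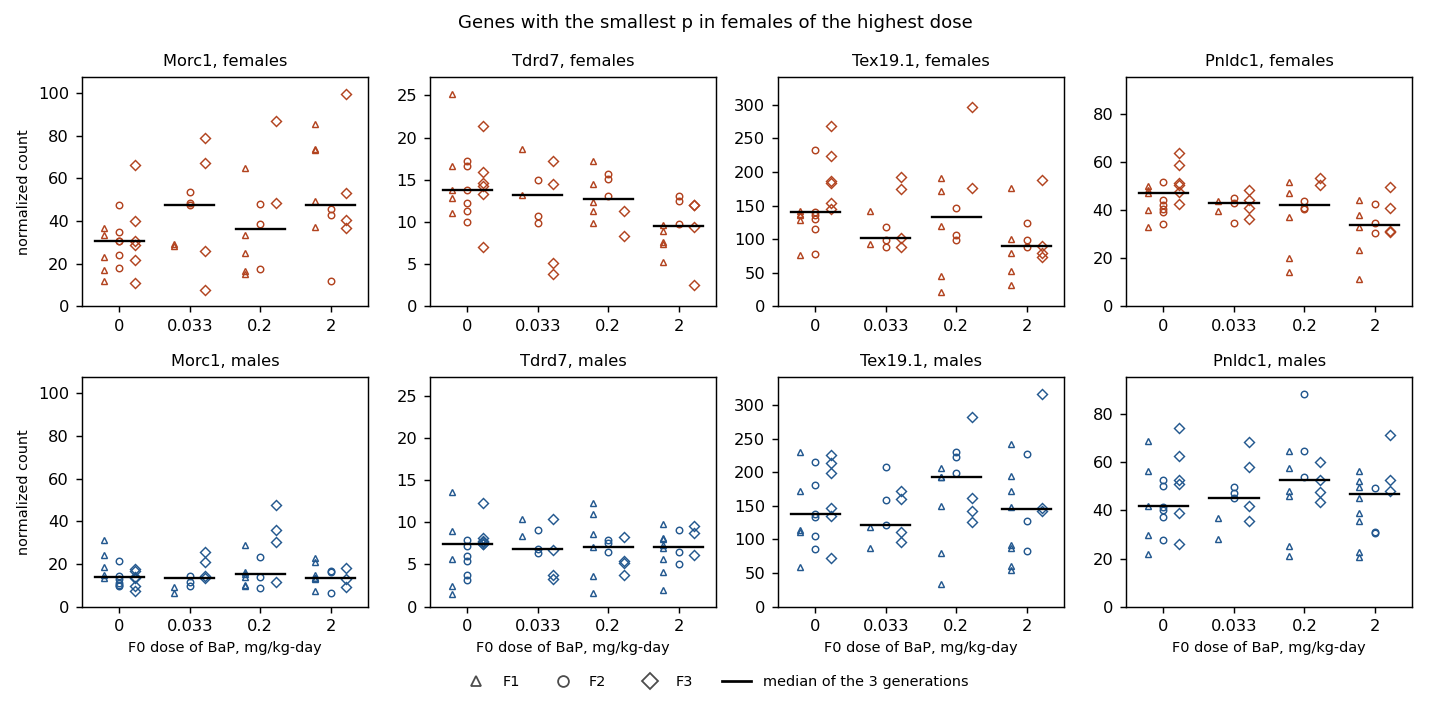
Normalized counts of Morc1, Tdrd7, Tex19.1 and Pnldc1 against the dose given to F0 dams (mg/kg-day), with 1 symbol per embryo (triangles F1, circles F2, diamonds F3), females above and males below, and a bar at the median of each dose. In females the medians at 0 and 2 mg/kg-day are 30.6 and 47.6 for Morc1, 13.8 and 9.48 for Tdrd7, 141 and 89.2 for Tex19.1, and 47.1 and 33.9 for Pnldc1.

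Among single generations, the F1 females of the high dose held the highest log2 fold change of Morc1. Its values were 73.9, 49.6, 85.6, 73.2 and 37.1 in the exposed F1 females and 17.2, 23.3, 36.7, 11.9 and 33.5 in the vehicle ones. The groups did not overlap, by the narrow gap between 37.1 and 36.7, and the difference did not pass (log2 fold change 1.42, SE 0.342, limma adjusted p = 0.2402). Without D2587.1, the exposed female at 37.1, it passed with limma adjusted p = 0.0476. At an unadjusted p under 0.05 the comparison gave 5 of 31 genes beside 9.89% of all genes. Stra8 in these embryos had a median of 112 beside 450.4 in the vehicle F1 females, and Sertoli markers summed to a median of 38.8 beside 22.8. Stromal markers summed to 1.66 to 10.9 in the exposed and 0.278 to 1.83 in the vehicle F1 females. Male fate genes summed to 3.13 to 11.1 beside 2.05 to 5.22, and erythroid markers reached 1788 in D2582.1 beside at most 3.55. The part of these in the difference was not tested. With upper quartile scaling the median of all genes in this comparison moved from -0.02 to 0.11, and the sign of Morc1 stayed positive.

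In F2 males of the middle dose, 27 of 30 genes had positive log2 fold changes, with a median of 0.42 beside -0.0088 over all genes, and 7 had an unadjusted p under 0.05 beside 9.58% of all genes. Pnldc1 read 54.0, 88.3 and 64.8 in the 3 exposed males, and 52.5, 40.4, 41.3, 50.2, 27.9 and 37.3 in the 6 vehicle males. Each exposed male lay above every vehicle male, yet the difference did not pass (log2 fold change 0.72, SE 0.185, limma adjusted p = 0.0710). Mael read 122, 253 and 112 in the exposed males, and 125, 79.7, 90.2, 95.3, 56.4 and 69.8 in the vehicle males. Of these D1064.1, at 253, stood highest, and the other exposed males lay under the highest vehicle male (log2 fold change 0.85, SE 0.246, limma adjusted p = 0.124). Without D1040.1, Pnldc1 passed with limma adjusted p = 0.0212. Nanos2 in the exposed males had a median of 4.29 and a highest value of 10.8, in D1064.1, beside a median of 0.841 and a highest value of 3.13 in the vehicle F2 males. Sertoli markers summed to a median of 138 beside 296, and the part of either in the differences was not tested.

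In F3 females of the middle dose, with 2 exposed embryos, the log2 fold changes of Ago2 and Mov10 were 1.27 and 1.09, both with limma adjusted p = 0.337. Trim28 was the third positive gene with an unadjusted p under 0.05, at 0.57, and Piwil4 and Mael were negative, at -1.03 and -0.94. These are 5 of 30 genes beside 12.8% of all genes, and 17 of the 30 log2 fold changes were negative, the lowest at -1.16. Both exposed embryos lay above all 6 vehicle females for Ago2 and Mov10, and their Stra8 had a mean of 38.2 beside 407 in the vehicle F3 females. Their endothelial markers summed to 50.3 and 83.3, mostly Pecam1, beside 23.0 to 46.7 in the vehicle F3 females, and their male fate genes to 13.9 and 14.4 beside at most 4.90. The part of these in the differences was not tested.

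The starts of these genes were read for letters they might share, since many of them moved together with Stra8 or Nanos2. Promoters of 300 bases, each around a gene start as RefSeq places it, were given for 25 of the 33 genes on GRCm38.p6. The gene positions given above come from GENCODE, whose starts can differ. For 5 genes (Henmt1, Piwil1, Pld6, Tdrd5 and Trim28) the promoter lay wholly downstream of the GENCODE start, by 66 bases for Tdrd5 and 24788 for Trim28. The members' promoters held a median of 20 CpG and 60.3% G and C, beside 7 CpG and 52.7% over 27025 genes. The letters GCGGGA, the core of E2F sites, were found on either strand (as GCGGGA or TCCCGC) in 9 of the 25 promoters, 36.0%, beside 20.02% of all promoters. The letters CACGTG, an E-box that reads the same on both strands and does not overlap the first motif, were found in 8 of 25, 32.0%, beside 7.24%. Both motifs hold a CpG, and the promoters of all genes were not matched to these for CpG, so the shares are not like for like. All 4 genes higher in vehicle males held GCGGGA, as did 3 of the 10 genes lower in males and 2 of the 10 that did not pass, among those with a promoter in the table. CACGTG was held by 1 of the 4, 4 of the 10 and 2 of the 10, in the same order. These counts rest on the main calls: Tdrd12, higher in males with upper quartile scaling or with dams as a block, held neither motif, and Wdr77 was not called without the 11 deepest libraries. Piwil1, higher in males without the filter on low values, held CACGTG and not GCGGGA. Asz1, lower in males with dams as a block, held neither motif. A match is a description, not a site or a cause.

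Of the promoters, 6 are printed 5′ to 3′ on the strand of the gene, in lower case with matches of either motif in capitals: those of the 4 genes higher in males, and those of Mael and Fkbp6 as genes lower in males with CACGTG. They lie on GRCm38.p6 with Mael at chr1:166238695-166238994 on the minus strand, Fkbp6 at chr5:135349995-135350294 on the minus strand, Tdrd5 at chr1:156303299-156303598 on the minus strand, Trim28 at chr7:13023902-13024201 on the plus strand, Prmt5 at chr14:54517421-54517720 on the minus strand, Wdr77 at chr3:105959248-105959547 on the plus strand.
Mael: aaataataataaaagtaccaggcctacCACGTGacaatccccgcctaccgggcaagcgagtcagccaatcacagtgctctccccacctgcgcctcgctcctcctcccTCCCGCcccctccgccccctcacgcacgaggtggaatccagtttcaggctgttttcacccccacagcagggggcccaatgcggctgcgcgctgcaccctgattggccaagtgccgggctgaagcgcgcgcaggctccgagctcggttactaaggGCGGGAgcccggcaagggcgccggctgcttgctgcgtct
Fkbp6: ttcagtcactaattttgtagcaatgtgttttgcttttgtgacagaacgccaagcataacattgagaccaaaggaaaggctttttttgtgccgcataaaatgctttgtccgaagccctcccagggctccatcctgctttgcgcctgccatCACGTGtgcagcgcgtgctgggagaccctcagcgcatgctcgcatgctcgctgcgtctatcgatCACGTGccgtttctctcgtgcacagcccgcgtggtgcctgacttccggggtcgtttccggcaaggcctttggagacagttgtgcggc
Tdrd5: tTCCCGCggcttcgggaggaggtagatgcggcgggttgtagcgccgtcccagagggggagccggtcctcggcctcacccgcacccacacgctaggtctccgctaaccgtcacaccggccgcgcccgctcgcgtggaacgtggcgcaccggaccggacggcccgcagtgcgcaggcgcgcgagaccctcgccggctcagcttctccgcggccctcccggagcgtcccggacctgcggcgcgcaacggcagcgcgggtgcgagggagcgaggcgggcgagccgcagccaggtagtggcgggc
Trim28: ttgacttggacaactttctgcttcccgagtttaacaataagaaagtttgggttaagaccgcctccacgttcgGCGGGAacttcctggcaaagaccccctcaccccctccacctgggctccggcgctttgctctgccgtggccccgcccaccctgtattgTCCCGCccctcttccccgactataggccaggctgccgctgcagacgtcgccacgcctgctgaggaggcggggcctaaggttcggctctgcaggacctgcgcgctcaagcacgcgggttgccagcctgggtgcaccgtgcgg
Prmt5: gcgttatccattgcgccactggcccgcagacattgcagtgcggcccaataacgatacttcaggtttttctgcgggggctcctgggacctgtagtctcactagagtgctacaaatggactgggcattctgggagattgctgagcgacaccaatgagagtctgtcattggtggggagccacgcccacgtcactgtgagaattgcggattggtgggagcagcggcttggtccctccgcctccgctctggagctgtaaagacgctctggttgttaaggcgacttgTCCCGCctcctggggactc
Wdr77: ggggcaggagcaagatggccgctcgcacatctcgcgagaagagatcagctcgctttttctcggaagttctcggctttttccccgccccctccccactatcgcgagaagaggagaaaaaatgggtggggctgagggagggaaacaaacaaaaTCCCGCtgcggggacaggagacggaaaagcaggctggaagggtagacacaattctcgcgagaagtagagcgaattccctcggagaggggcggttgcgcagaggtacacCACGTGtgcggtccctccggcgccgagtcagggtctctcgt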

How the data were processed

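The authors deposited normalized gene counts (a signal per gene and embryo: reads counted on exons and scaled by TMM, trimmed mean of M values, with edgeR) for 15423 genes in 101 libraries, 1 per embryo. Whole reads were recovered in 99 of them by dividing each value by the library's smallest step, with 100.000000% of nonzero values within 0.05 of a whole read; F3 male D4190.1 and F3 female D1388.3 could not be recovered and entered only the tests on normalized counts. Tests kept genes whose mean reached 0.5 and used limma 3.58.1 (R 4.3.3, with trend) on log2 of the normalized count plus 0.5, in 1 fit of 8 groups of sex and dose over all generations and 1 fit per generation, two-sided, with Benjamini-Hochberg adjustment over all genes and a threshold of 0.05. Alternatives were edgeR 4.0.16 on recovered reads (quasi-likelihood and likelihood ratio tests), other pseudocounts, filters and scaling, dams as a block (limma consensus correlation 0.262), a generation term, the compared groups alone, and leaving out libraries. Correlations used log2 values and permutation tests, with adjustment over 64 relations, and the same limits on p were applied to all genes as background. All listed genes are named; lowest, median and highest values are given for the 4 genes with the largest difference between vehicle sexes in each direction, and in other lists the 3 with the smallest p in each direction. The genes and lists were chosen with earlier results of these data known. Gene positions and lengths were read from GENCODE annotation of GRCm38.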

Additional observations from a re-analysis of the deposited data

Results flagged for a closer look

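In 16 of 136 groups of 4 to 10 embryos examined, the lowest or highest value stood apart from the rest of its group by Dixon's test at 95%. For normally distributed values that test flags about 1 in 20 groups by chance. Here the values were not logged and the same embryos recur over genes, so the 16 cannot be judged against that rate. In F1 vehicle females, C4232.9 stood apart in Tdrkh at 408, Gtsf1 at 116 and Tex19.1 at 75.8, beyond ranges of 246 to 287, 26.4 to 46.5 and 128 to 142 in the others. In F1 vehicle males, C4321.1 stood apart in Gpat2 at 20.7.

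In F2 vehicle females, C4992.1 was low in Gpat2 at 8.17, and D3133.2 was high in Prmt5 at 73.3, Wdr77 at 162 and Trim28 at 252. In F3 vehicle females, D3526.1 was high in Trim28 at 223 and D1388.3 in Tdrd5 at 23.8. In F3 vehicle males, D1388.1 was high in Tdrd5 at 68.9 and Tdrd7 at 12.3. D1388.1 and its littermate D1388.3 also had the highest summed stromal markers of the vehicle embryos of their sex, 78.2 and 28.2, and the part of this was not tested. D3402.3 was high in Rnf17 at 249 and Hsp90aa1 at 4881 and low in Fkbp6 at 194. In F3 females of the high dose, D4190.2 was high in Tex19.1 at 188, beside 73.9 to 90.2 in the other 3.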

How the results depend on the processing

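None of the 18 genes that differed between vehicle sexes, and none of the 20 differences with BaP that had an unadjusted p under 0.05 for high-dose females, F1 high-dose females or F2 middle-dose males, reversed its sign under the alternatives. Of 215 values of the 18 genes, 211 kept their side of the threshold and 4 did not pass. For BaP over all generations, 0 genes became 1 with a filter at a mean of 5, 1 with dams as a block and 5 with the compared groups alone, all in high-dose females, where 4.88%, 3.35% and 7.4% of all genes passed beside 1.36% in the main test. Over the settings tried for all generations, the genes called there ran from 0 to 961. In single generations, 0 became 2 with the edgeR likelihood ratio test, and leaving out 1 library at a time gave 0 to 1. The summed count of sex differences in single generations, 30, ran from 27 to 33 when 1 library at a time was left out. The 37 relations with Stra8 or Nanos2 became 18 within F1, 16 within F2 and 24 within F3, where fewer embryos were used. Why the other counts moved was not tested. Tdrd6 and Piwil1 rest on a few reads in most embryos, and groups of 2 or 3 embryos limited the single generations.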
